A study of Mus musculus with 20 samples.

Results

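Interferon-stimulated genes are the genes that cells switch on after an interferon has bound its receptor. The set described here holds 49 of them, listed by name across sensors, transcription factors and antiviral effectors, with earlier results of these data known. All 49 were among the 19940 genes of the deposited table, and 43 of the 49 passed a filter on low values (10 or more normalized counts in at least 5 libraries), as did 14630 genes in all. The main pattern of these 43 lay in Tert+/+ kidneys, where 38 had lower values at 47 weeks than at 7 weeks. The other 5 (11.6%) had higher values, as did 50.7% of all tested genes. A list of 65 further tested interferon-stimulated genes did not share this direction, with 33 higher and 32 lower at 47 weeks in Tert+/+. Among the 43, only Trim30a passed the test in Tert+/+, where 0.649% of all tested genes passed. Its call was lost with edgeR and in 18 of 20 fits that left out 1 library. In G3 Tert-/- kidneys 22 of the 43 were lower and 21 higher at the later age. At 47 weeks, 37 of the 43 (86%) were higher in G3 Tert-/- than in Tert+/+ kidneys, as were 52.1% of all genes, and 30 of the 43 without G3 Tert-/- old replicate 5. None of these differences passed, where 0.0957% of all genes did.

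RNA was taken from kidneys of 20 male mice, 1 library per mouse, in 4 groups of 5: Tert+/+ at 7 weeks, G3 Tert-/- at 7 weeks, Tert+/+ at 47 weeks and G3 Tert-/- at 47 weeks. Tert encodes the catalytic subunit of telomerase, and G3 marks the third generation bred without it, a model in which telomeres shorten over generations in all tissues. The sources used here give no strain, no litters and no kinship between the genotypes. No treatment beyond genotype and age is named for these mice. The 4 groups allow the genotypes to be compared at either age, and the ages within either genotype. Libraries were sequenced from the 3′ end of polyadenylated RNA, so values of different genes are not scaled by length. Values below are normalized read counts, meaning reads per gene divided by 1 size factor per library. Ages of 7 and 47 weeks are also called young and old.

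Type I interferons signal through the receptor of Ifnar1 and Ifnar2 and the kinases Jak1 and Tyk2 to a complex that contains STAT2 and IRF9 and binds a promoter element called the interferon-stimulated response element (ISRE). Interferon gamma signals through Ifngr1 and Ifngr2 to another element, the gamma-activated site (GAS). In kidney, as in other tissues, epithelial, endothelial and immune cells can all run this programme, and it is known for its part in antiviral defence and in the response to nucleic acids that appear in the wrong compartment.

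Libraries held 7161690 to 9757594 reads, and up to 3 reads may lie behind a listed 0 (2.49 to 3.38 normalized counts, for counting error only). All 10 kidney epithelial markers were above 0 in every library, with a summed count of 47910 to 91000. The highest sum was in Tert+/+ young replicate 1, and the next highest was 64190, in Tert+/+ old replicate 4. In 2 groups 1 library stood apart. Tert+/+ young replicate 1 was the highest of its group for 32.5% and the lowest for 31.6% of all tested genes, and Tert+/+ old replicate 4 for 34% and 33%, against 13.4% to 29.1% in the other 18 libraries. That old library also had the highest summed count of 8 hepatocyte markers in its group, 2664, where the rest lay between 870.2 and 1084, and the part of these cells in the members' values was not tested. Tert counts were low and overlapped between genotypes, from 4.21 to 15.7 in young and 7.25 to 16.9 in old Tert+/+ kidneys against 0.979 to 5.65 and 5.11 to 8.31 in the matching G3 Tert-/- kidneys. The deleted part of the gene is not described in the labels, so 3′ reads do not check the genotype.

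The promoters show what the members share by sequence. RefSeq promoters on build GRCm38.p6, from 250 bases before to 50 bases after the start, were matched by symbol for 36 of the 49 members. The ISRE was searched as GAAA, any 2 bases and GAAA again, on both strands with overlaps allowed. It was in the promoters of 18 of these 36 members (50%), against 3.99% of 27025 genes. The GAS, searched the same way as TTC, any 3 bases and GAA, was in those of 10 of the 36 (27.8%), against 9.55% of genes. The windows below are shown for members on which the results turn, or which are classical targets. Each runs 5′ to 3′ on the gene's strand, and capitals mark ISRE matches on either strand, those on the other strand as the reverse complement.
Ifit1 (chr19:34640784-34640833, + strand): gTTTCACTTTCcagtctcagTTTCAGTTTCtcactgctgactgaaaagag
Ifit3 (chr19:34583387-34583436, + strand): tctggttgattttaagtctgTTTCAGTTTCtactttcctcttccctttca
Isg15 (chr4:156200855-156200904, - strand): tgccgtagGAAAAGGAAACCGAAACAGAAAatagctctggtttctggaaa
Trim30a (chr7:104465200-104465249, - strand): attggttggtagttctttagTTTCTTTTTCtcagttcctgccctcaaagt
Gbp7 (chr3:142530263-142530312, + strand): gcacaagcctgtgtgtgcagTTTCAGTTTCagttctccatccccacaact
Bst2 (chr8:71537567-71537616, - strand): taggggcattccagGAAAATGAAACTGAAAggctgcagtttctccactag
The Trim30a match shown lies from -36 to -27 relative to the start, and a second RefSeq promoter of this gene (chr7:104446076-104446375) holds another match from 3 to 12. In the windows shown, Ifit1 holds a pair of matches, Isg15 an overlapping run and Bst2 an overlapping pair. The Ifit3 promoter holds another match from -156 to -147, outside its window. The windows of Ifit3 and of its neighbour Ifit3b have the same letters. The promoter entries of Oasl2, Lgals3bp and Ifi44 held no ISRE match, which says only that these letters are not in those windows.

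**Figure D1:**
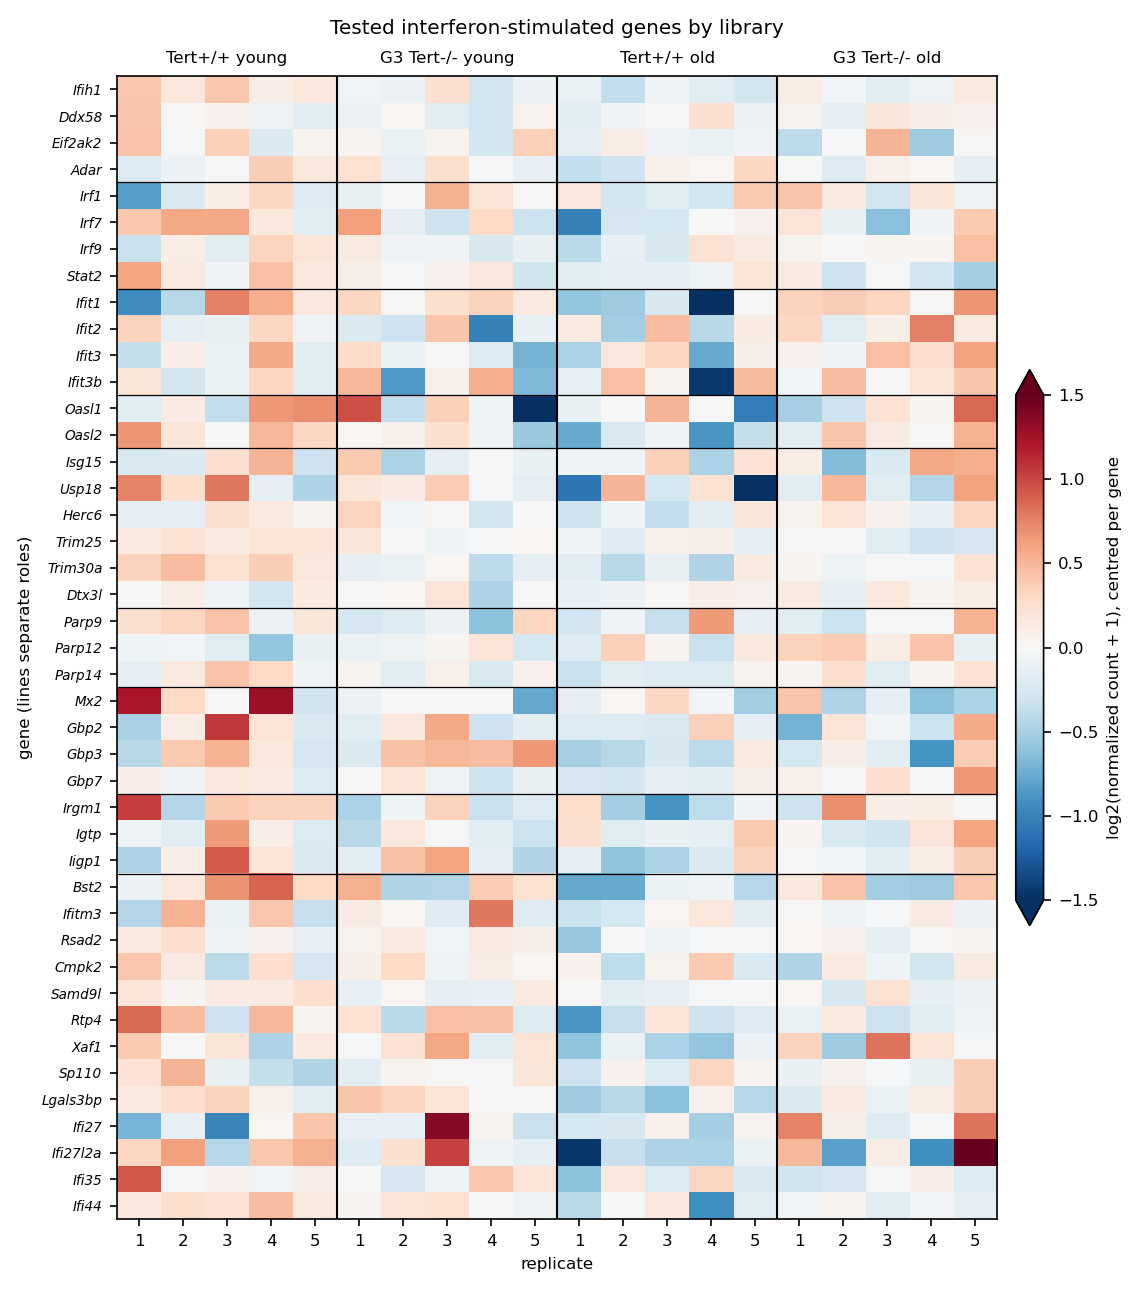
Log2 of the normalized count plus 1 for the 43 tested members, centred on each gene's mean over all 20 libraries, with 1 row per gene grouped by role and 1 column per library grouped by genotype and age; colours stop at 1.5 and -1.5. Blue marks values below the gene's mean, and the Tert+/+ old group had the lowest mean for 26 of the 43 genes and the highest for 0.

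The difference with age in Tert+/+ kidneys was spread thinly over the set. Of the 43 tested members, 38 had a negative log2 fold change from 7 to 47 weeks and 5 a positive one, with a median of -0.23, while 50.7% of all tested genes were positive and their median was 0.0036. Log2 fold changes are on the scale of log2(normalized count + 1) and are given ± their standard error (SE). Only Trim30a passed (limma, adjusted p under 0.05), 1 of 43, where 0.649% of all tested genes passed and 0.246% passed as lower. For 5 members, Trim30a, Trim25, Ifih1, Oasl2 and Samd9l, old kidneys lay below young ones without overlap, as for 1.25% of all genes. At an unadjusted p under 0.05 there were 15 members, all lower: Trim30a, Oasl2, Lgals3bp, Ifih1, Ifi44, Bst2, Rtp4, Irf7, Irgm1, Parp14, Trim25, Ifi27l2a, Ifit1, Samd9l and Stat2. The same threshold held 791 lower and 767 higher genes of the 14630. Tert+/+ old had the lowest mean of the 4 groups for 60.5% of the members, against 20.9% of all genes. In whole tissue, fewer cells of a type and less RNA per cell cannot be told apart. The labels name separate samples but no litters or batches, so p-values measure only the spread between these libraries, part of which may be technical.

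**Figure D2:**
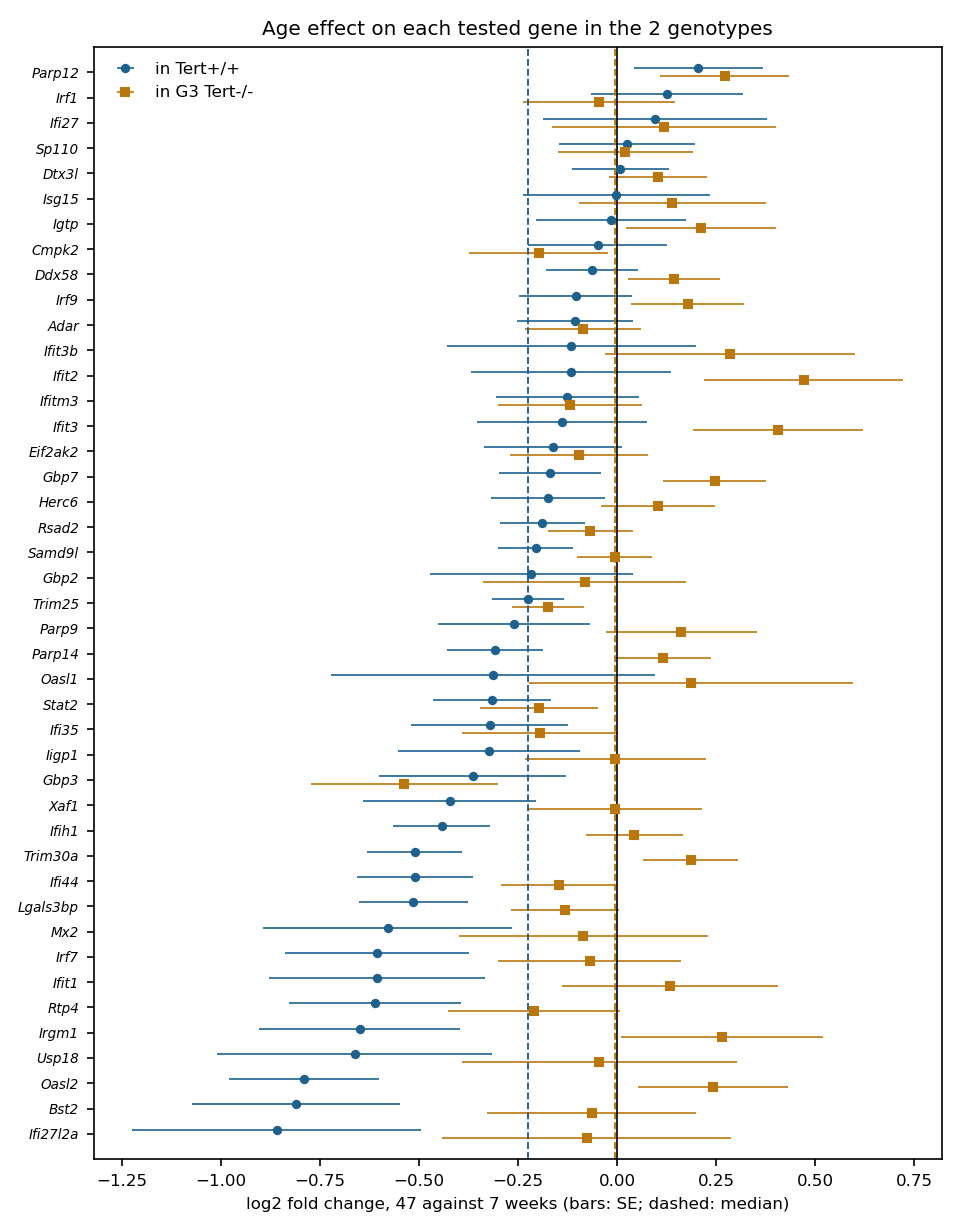
Log2 fold change from 7 to 47 weeks (horizontal axis) of each tested member (vertical axis), on the scale of log2(normalized count + 1). Circles mark Tert+/+ and squares mark G3 Tert-/- kidneys, with bars for the SE and dashed lines at the medians. In Tert+/+ 38 of 43 points lie below 0, while in G3 Tert-/- 22 lie below and 21 above.

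The ubiquitin and ISG15 genes held the member that passed. Trim30a (GRCm38 chromosome 7, 104409025 to 104465193, by GENCODE M21) encodes a tripartite-motif protein that restrains Toll-like receptor signalling. Trim30a counts at 7 weeks were 201, 218, 186, 204 and 178 in Tert+/+ and 143, 148, 161, 120.4 and 145 in G3 Tert-/- mice. Trim30a counts at 47 weeks were 142, 118, 147, 116 and 175 in Tert+/+ and 164, 150.4, 159, 156 and 185 in G3 Tert-/- mice. The 5 young Tert+/+ kidneys stood above every young G3 Tert-/- and every old Tert+/+ kidney, and only replicate 5 of the old G3 Tert-/- group reached their range. In Tert+/+ kidneys Trim30a fell by 0.51 ± 0.12 on the log2 scale (SE, adjusted p = 0.0469), from 197 ± 15.6 (SD, n = 5) to 139.6 ± 24 (SD, n = 5). The call was lost without Tert+/+ old replicate 2 (0.158) and in 18 of 20 fits that left out 1 library; it held without Tert+/+ old replicate 5 (0.0185) and without G3 Tert-/- young replicate 4 (0.0347). It was also lost with edgeR (0.0523), without the filter on low values (0.0611) and with only the 2 groups compared (0.192). Without both libraries that stood apart it was lost too (0.133). The call held with a pseudocount of 5 (0.0463), with TMM scaling (0.0473) and with DESeq2. Adjusted p ranged from 0.0099 to 0.192 over all alternatives. In G3 Tert-/- kidneys the same fold change was 0.19 ± 0.12 (adjusted p = 0.502).

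Trim25, an E3 ligase that ubiquitinates RIG-I, had the highest mean count of this group. Trim25 counts at 7 weeks were 445, 474, 439, 461 and 459 in Tert+/+ and 459, 402, 387, 394 and 412 in G3 Tert-/- mice. Trim25 counts at 47 weeks were 386, 352, 426, 428 and 364 in Tert+/+ and 396, 407, 354, 326 and 339.5 in G3 Tert-/- mice. All 5 young Tert+/+ values exceeded all 5 old ones, while the G3 Tert-/- groups overlapped. The fold changes with age were -0.23 ± 0.09 in Tert+/+ (adjusted p = 0.353) and -0.17 ± 0.09 in G3 Tert-/- (0.383), so this gene had a negative value in both. Isg15 itself, the ubiquitin-like modifier, averaged 45.2, 42.8, 44.8 and 48.7 in Tert+/+ young, G3 Tert-/- young, Tert+/+ old and G3 Tert-/- old kidneys, with overlapping groups; 136 bases of its end are 95.6% identical to another annotated transcript, so it is uncertain. Usp18, the protease that removes ISG15, was counted at 4.45 to 25.4, Herc6, an ISG15 ligase, at 56.5 to 92.7, and Dtx3l, the ubiquitin ligase that pairs with PARP9, at 105 to 166. Of the 6 genes, 5 were lower with age in Tert+/+ and 2 in G3 Tert-/-.

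Among the sensors of viral RNA and their controls, Ifih1 differed most. It encodes MDA5, a cytoplasmic sensor of long double-stranded RNA, on chromosome 2, 62595798 to 62646255. Ifih1 counts at 7 weeks were 127, 108, 127, 103 and 107 in Tert+/+ and 92.7, 90, 113, 78.9 and 90 in G3 Tert-/- mice. Ifih1 counts at 47 weeks were 89.1, 73.9, 92.5, 84.5 and 79 in Tert+/+ and 104, 93.1, 84.1, 90.9 and 106 in G3 Tert-/- mice. Every old Tert+/+ kidney lay below every young one, and the G3 Tert-/- groups overlapped. The fold change with age was -0.44 ± 0.12 in Tert+/+ (adjusted p = 0.114) and 0.044 ± 0.12 in G3 Tert-/- (adjusted p = 0.913). Ddx58, which encodes RIG-I, had the highest mean count of the sensors. Ddx58 counts at 7 weeks were 302, 228, 236, 214 and 200.3 in Tert+/+ and 213, 231, 199.7, 185 and 234 in G3 Tert-/- mice. Ddx58 counts at 47 weeks were 202, 218, 224, 267 and 212 in Tert+/+ and 234, 205, 257, 241 and 236 in G3 Tert-/- mice. Tert+/+ young replicate 1 was the highest of the 20 and all groups overlapped. Its Tert+/+ fold change with age was -0.063 ± 0.12 (adjusted p = 0.895). Eif2ak2, the double-stranded RNA-activated kinase PKR, was at 56.2 to 117 and Adar, which edits double-stranded RNA, at 63.2 to 106, and neither passed in any comparison. Dhx58, which encodes the regulator LGP2, and Zbp1, a sensor of Z-form nucleic acid, were too low to be tested, at 1.13 to 11.8 and 1.95 to 16.9.

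The transcription factors gave a mixed picture. Irf9, the DNA-binding part of the complex that binds the ISRE, had the highest mean. Irf9 counts at 7 weeks were 143, 195, 159, 227 and 205 in Tert+/+ and 197, 174, 173, 153 and 167 in G3 Tert-/- mice. Irf9 counts at 47 weeks were 136, 166, 153, 212 and 198 in Tert+/+ and 187, 179, 185, 185 and 248 in G3 Tert-/- mice. The groups overlapped, apart from G3 Tert-/- old replicate 5, which stood above the other 19 kidneys. Irf9 had fold changes with age of -0.10 ± 0.14 in Tert+/+ (adjusted p = 0.846) and 0.18 ± 0.14 in G3 Tert-/- (0.614). Irf7, the factor that amplifies type I interferon production, averaged 70.1 in young and 46.4 in old Tert+/+ kidneys, a fold change of -0.60 ± 0.23 (adjusted p = 0.319). Stat2, a subunit of the same complex, averaged 110.5 and 88 there (-0.31 ± 0.15, adjusted p = 0.45). Irf1, which responds mainly to interferon gamma, went the other way in Tert+/+, at 0.13 ± 0.19 (adjusted p = 0.864).

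The IFIT genes, whose proteins bind viral RNA that lacks the host's cap methylation, lie together on chromosome 19. All 4 had negative fold changes with age in Tert+/+ (median -0.13) and positive ones in G3 Tert-/- (median 0.35), and none passed. Ifit1 counts at 7 weeks were 33.5, 48.2, 109.5, 94.3 and 72.4 in Tert+/+ and 79.9, 65.6, 76.3, 82.2 and 71.8 in G3 Tert-/- mice. Ifit1 counts at 47 weeks were 42.5, 44.3, 54.5, 21.4 and 64.5 in Tert+/+ and 82.4, 83.9, 81, 65.4 and 103 in G3 Tert-/- mice. Old G3 Tert-/- kidneys all exceeded old Tert+/+ ones for Ifit1, though the closest values, 64.5 and 65.4, nearly met. Young Tert+/+ kidneys spanned both groups. The old genotype difference was 0.93 ± 0.27 (adjusted p = 0.373), between 45.5 ± 16.1 (SD, n = 5) and 83.2 ± 13.4 (SD, n = 5).

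Ifit3 had the highest mean count of the family. Ifit3 counts at 7 weeks were 80.7, 111, 96.8, 154 and 91.7 in Tert+/+ and 127, 96.9, 105, 89.7 and 63.2 in G3 Tert-/- mice. Ifit3 counts at 47 weeks were 74.6, 116, 129.5, 60.8 and 110.2 in Tert+/+ and 109, 100.3, 142, 124 and 158 in G3 Tert-/- mice. The groups overlapped, with the 2 highest values in old G3 Tert-/- replicate 5 and young Tert+/+ replicate 4. Its age difference in G3 Tert-/- was 0.41 ± 0.21 (adjusted p = 0.39), and 0.27 without G3 Tert-/- young replicate 5. Ifit2, an inhibitor of viral translation, had fewer reads. Ifit2 counts at 7 weeks were 31.5, 22.2, 22.5, 30.5 and 23.6 in Tert+/+ and 20.9, 19.6, 33, 11.6 and 22.5 in G3 Tert-/- mice. Ifit2 counts at 47 weeks were 26.9, 16.8, 34.1, 18 and 26.7 in Tert+/+ and 30.6, 21.5, 26, 41.9 and 27.3 in G3 Tert-/- mice. Here too the groups overlapped, and the age difference in G3 Tert-/- was 0.47 ± 0.25 (adjusted p = 0.395), and 0.28 without G3 Tert-/- young replicate 4. Ifit3b was at 10.1 to 43.2. Its last 300 transcript bases are 94.3% identical to those of Ifit3, so reads could be split between these copies or lost, and both values are uncertain.

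In the OAS group, whose enzymes make the second messenger that activates RNase L, Oasl2 (chromosome 5, 114896936 to 114912234) had the highest mean count; its product is an OAS-like protein. Oasl2 counts at 7 weeks were 96.4, 68.5, 60.6, 86 and 74.9 in Tert+/+ and 61.8, 63.6, 71.6, 57.3 and 40.7 in G3 Tert-/- mice. Oasl2 counts at 47 weeks were 35.2, 51.2, 57.5, 32.7 and 46.7 in Tert+/+ and 53.9, 80.8, 66.5, 61.3 and 86.9 in G3 Tert-/- mice. Within Tert+/+, each old value was below each young value, and the groups of G3 Tert-/- overlapped. The age difference was -0.79 ± 0.19 in Tert+/+ (adjusted p = 0.0536) and 0.24 ± 0.19 in G3 Tert-/- (adjusted p = 0.605). Oasl2 passed in Tert+/+ with DESeq2 (adjusted p = 0.0123) and in 3 of 20 fits that left out 1 library: Tert+/+ old replicate 3 (0.0434), Tert+/+ young replicate 3 (0.0436) and G3 Tert-/- young replicate 5 (0.0414). Oasl1, a translational repressor of Irf7, was at 2.14 to 16.4 and just passed the filter, with 10 or more in 6 libraries. Oas1a and Oas2 did not pass it, at 0 to 3.34 and 0 to 12.5. Oas1a ends in 300 bases that are 96.7% identical to Oas1g, so its value is uncertain.

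**Figure D3:**
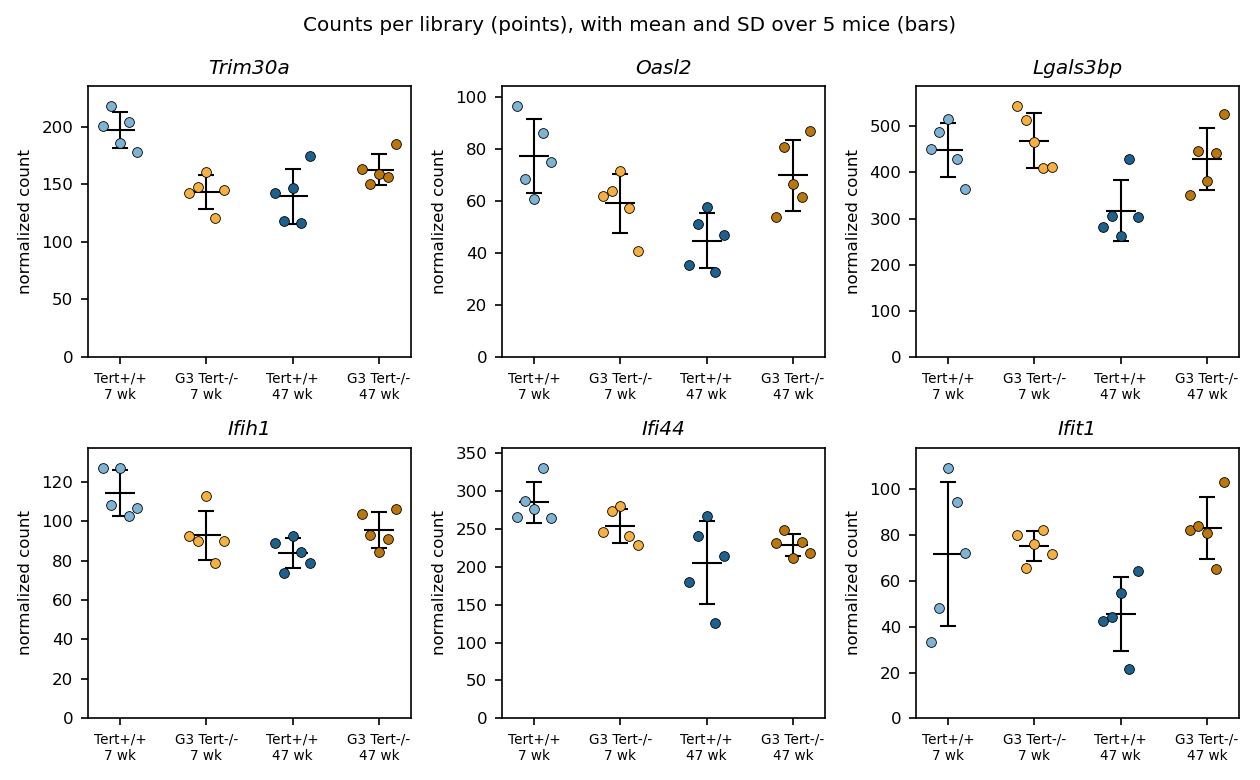
Normalized read counts of Trim30a, Oasl2, Lgals3bp, Ifih1, Ifi44 and Ifit1 in the 4 groups, with 1 point per mouse and bars for the mean and SD of 5 mice; each vertical axis starts at 0. For Trim30a and Oasl2 the 5 old Tert+/+ points lie below the 5 young ones, and for Ifit1 they lie below the 5 old G3 Tert-/- points.

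Parp14 and Parp9 belong to the interferon-induced ADP-ribosyl transferases. Parp14 had the highest mean count of them. Parp14 counts at 7 weeks were 209, 255, 309, 283 and 222 in Tert+/+ and 237, 204, 242, 196 and 241 in G3 Tert-/- mice. Parp14 counts at 47 weeks were 182, 204, 199, 199 and 239 in Tert+/+ and 237, 274, 203, 237 and 267 in G3 Tert-/- mice. Old Tert+/+ kidneys were low apart from replicate 5, and the groups overlapped. Its age difference was -0.31 ± 0.12 in Tert+/+ (adjusted p = 0.337) and 0.12 ± 0.12 in G3 Tert-/- (adjusted p = 0.72). For Parp9 a single old kidney stood out. Parp9 counts at 7 weeks were 158, 167, 180, 125 and 152 in Tert+/+ and 112, 116, 125, 86.4 and 166 in G3 Tert-/- mice. Parp9 counts at 47 weeks were 109, 127, 104, 208 and 120.2 in Tert+/+ and 117, 106, 131, 131 and 192 in G3 Tert-/- mice. Tert+/+ old replicate 4, a library that stood apart in general, was the highest of all 20. The young genotype difference was -0.39 ± 0.19 (adjusted p = 0.475), with overlap. Parp12, which ADP-ribosylates proteins at the Golgi, had positive fold changes with age in both genotypes, at 0.21 ± 0.16 and 0.27 ± 0.16 (adjusted p = 0.696 and 0.457).

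The large GTPases, which attack viral capsids (Mx) or the vacuoles of intracellular microbes (Gbp), were led by Gbp7. Gbp7 counts at 7 weeks were 249, 224, 258, 253 and 200.3 in Tert+/+ and 232, 266, 220.4, 185 and 214 in G3 Tert-/- mice. Gbp7 counts at 47 weeks were 195, 192, 210.3, 208 and 247 in Tert+/+ and 245, 228, 275, 228 and 364 in G3 Tert-/- mice. Old G3 Tert-/- replicate 5 was the highest of the 20 and the groups overlapped only through Tert+/+ old replicate 5 at that age. The genotype difference at 47 weeks was 0.33 ± 0.13 (adjusted p = 0.653), and the age difference in G3 Tert-/- was 0.25 ± 0.13 (adjusted p = 0.387). Without G3 Tert-/- old replicate 5 these were 0.21 and 0.13. Gbp3, another guanylate-binding protein, had the smallest p with age in G3 Tert-/-. Gbp3 counts at 7 weeks were 27.6, 49.2, 53.8, 41.6 and 31.1 in Tert+/+ and 31.8, 50.9, 52.8, 51.5 and 59 in G3 Tert-/- mice. Gbp3 counts at 47 weeks were 25.9, 27.6, 31.2, 28.1 and 41.2 in Tert+/+ and 30.6, 39.9, 33.2, 19.4 and 48.5 in G3 Tert-/- mice. Of the 5 young G3 Tert-/- kidneys, 4 exceeded every old kidney of either genotype, and replicate 1 lay among the old ones. Its age differences were -0.54 ± 0.24 in G3 Tert-/- (adjusted p = 0.273) and -0.36 ± 0.24 in Tert+/+ (adjusted p = 0.618), both negative, and the first was -0.35 without G3 Tert-/- old replicate 4.

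Mx2 was counted near the filter's limit, and GENCODE M21 types it as a polymorphic pseudogene, not as protein-coding. Mx2 counts at 7 weeks were 28.5, 14.5, 11.7, 29.6 and 9.26 in Tert+/+ and 10.9, 11.7, 11.3, 11.6 and 6.43 in G3 Tert-/- mice. Mx2 counts at 47 weeks were 10.4, 11.8, 14.6, 11.3 and 7.79 in Tert+/+ and 15.8, 8.19, 10.4, 7.15 and 8.08 in G3 Tert-/- mice. Young Tert+/+ replicates 1 and 4 were high and the other 18 libraries lay at or below 15.8. The young genotype difference was -0.68 ± 0.32 (adjusted p = 0.466). Gbp2 was at 31.7 to 111, with its highest value in Tert+/+ young replicate 3. Mx1 and Gbp6 were not tested, at 0.974 to 12 and 0 to 10.8. The last 300 bases of Gbp6 are identical to those of Gbp10 (100%), so its value is uncertain.

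The immunity-related GTPases act in the same vacuole defence, and Irgm1 regulates the others. Irgm1 counts at 7 weeks were 76.8, 27, 48.9, 47.1 and 47.1 in Tert+/+ and 26.3, 35.2, 47.1, 29.1 and 32.2 in G3 Tert-/- mice. Irgm1 counts at 47 weeks were 44.6, 25.6, 19.5, 28.1 and 35.6 in Tert+/+ and 29.6, 60.4, 39.5, 39.8 and 37.4 in G3 Tert-/- mice. Young Tert+/+ replicate 1 was the highest and the groups overlapped. Its age difference was -0.65 ± 0.25 in Tert+/+ (adjusted p = 0.332) and 0.27 ± 0.25 in G3 Tert-/- (adjusted p = 0.691). The 3′ end of Irgm1 resembles stretches of other transcripts, such as Ncbp3 (90.9% over 198 bases), so its count is uncertain. Iigp1, an effector GTPase, had the highest mean. Iigp1 counts at 7 weeks were 103, 153, 271, 165 and 123 in Tert+/+ and 128, 194, 216, 129.5 and 104 in G3 Tert-/- mice. Iigp1 counts at 47 weeks were 131, 93.6, 103, 123 and 182 in Tert+/+ and 140.5, 139, 128, 154 and 185 in G3 Tert-/- mice. The young groups were wide, with Tert+/+ replicate 3 the highest, and all groups overlapped. Its Tert+/+ age difference was -0.32 ± 0.23 (adjusted p = 0.655). Igtp was at 57.2 to 120.3, and its Tert+/+ fold change with age was -0.015.

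Lgals3bp, a secreted glycoprotein that binds galectins, had the smallest p with age in Tert+/+ among the remaining effectors. Lgals3bp counts at 7 weeks were 452, 487, 516, 429 and 364 in Tert+/+ and 544, 514, 465, 409 and 413 in G3 Tert-/- mice. Lgals3bp counts at 47 weeks were 282, 306, 263, 430.2 and 304 in Tert+/+ and 352, 447, 381, 442 and 526 in G3 Tert-/- mice. Within Tert+/+, 4 of 5 old kidneys were below all young ones, and replicate 4, a library that stood apart, was among the young values. The age difference was -0.51 ± 0.14 in Tert+/+ (adjusted p = 0.0989) and -0.13 ± 0.14 in G3 Tert-/- (adjusted p = 0.721). It passed in Tert+/+ without that library (0.0165), without both libraries that stood apart (0.02) and with DESeq2 (0.0404). The genotype difference at 47 weeks was 0.45 ± 0.14 (adjusted p = 0.435).

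Ifi44, an interferon-induced protein with a GTP-binding motif, also had lower values in most old Tert+/+ kidneys. Ifi44 counts at 7 weeks were 266, 286, 277, 331 and 264 in Tert+/+ and 245, 274, 281, 240 and 228 in G3 Tert-/- mice. Ifi44 counts at 47 weeks were 180.3, 240.4, 267, 126 and 214 in Tert+/+ and 231, 249, 212, 233 and 218 in G3 Tert-/- mice. Old Tert+/+ values ran from below all others up into the young range. The age difference there was -0.51 ± 0.15 (adjusted p = 0.128), against -0.15 ± 0.15 in G3 Tert-/- (adjusted p = 0.701). Xaf1 encodes a pro-apoptotic partner of XIAP. Xaf1 counts at 7 weeks were 61, 46.3, 52.8, 33.3 and 51.3 in Tert+/+ and 45.4, 53.8, 69.7, 41.5 and 53.6 in G3 Tert-/- mice. Xaf1 counts at 47 weeks were 30.1, 43.4, 33.1, 30.4 and 43.4 in Tert+/+ and 59.1, 31.7, 82.1, 53.1 and 45.5 in G3 Tert-/- mice. Old Tert+/+ kidneys were low and narrow, and old G3 Tert-/- kidneys were wide and overlapped them. The genotype difference at 47 weeks was 0.53 ± 0.22 (adjusted p = 0.677).

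Ifitm3, which blocks the fusion of viruses with endosomes, had the highest mean of all members. Its end resembles 2 other annotated transcripts, one of them Gm6885 (93% over 100 bases), so its count is uncertain. Ifitm3 counts at 7 weeks were 832, 1613, 1050, 1491 and 887 in Tert+/+ and 1221, 1143, 982, 1951 and 983 in G3 Tert-/- mice. Ifitm3 counts at 47 weeks were 894, 934, 1145, 1261 and 1000 in Tert+/+ and 1141, 1064, 1108, 1221 and 1060 in G3 Tert-/- mice. Young kidneys of both genotypes were spread widely and no group stood apart. Its age differences were -0.12 ± 0.18 in Tert+/+ and -0.12 ± 0.18 in G3 Tert-/- (adjusted p = 0.856 and 0.821). Samd9l, a restriction factor that inhibits translation, averaged 733 in young and 636 in old Tert+/+ kidneys without overlap, and did not pass (-0.21 ± 0.09, adjusted p = 0.434). Bst2, which tethers budding virions, averaged 37 and 20.5 in the same kidneys (-0.81 ± 0.26, adjusted p = 0.202). Rtp4, an interferon-induced transporter protein, averaged 98.9 and 63.8 (-0.61 ± 0.22, adjusted p = 0.27). Ifi27l2a averaged 164 and 91.7 (-0.86 ± 0.36, adjusted p = 0.384), and 138 bases of its end are 91.3% identical to Ifi27l2b, so it is uncertain.

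Of the other effectors, Rsad2, the antiviral enzyme viperin, was at 410 to 727, and its neighbour Cmpk2, a mitochondrial nucleotide kinase, at 49.7 to 90.5. Ifi27, a small mitochondrial protein, was at 139 to 714, Ifi35 at 36.3 to 108 and Sp110, a nuclear body protein, at 55.5 to 109. None of these 5 passed in any comparison. In Tert+/+, 11 of the 13 effectors had negative fold changes with age, as did 11 of 13 in G3 Tert-/-, where the median was closer to 0 (-0.08 against -0.32).

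With age in G3 Tert-/- kidneys the set showed no common direction. Fold changes were positive for 21 and negative for 22 of the 43 members, with a median of -0.0038 (0.03 with edgeR or DESeq2), while 50.5% of all genes were positive and their median was 0.0031. With limma, edgeR or DESeq2 0 members passed, where 2.24% of all tested genes passed with limma. Only Gbp3 had an unadjusted p under 0.05, where 1101 higher and 1083 lower genes of the 14630 did. For no member were the age groups apart, as they were higher for 1.94% and lower for 2.66% of all genes. Both age comparisons use different mice, so their values may be set side by side: the median was -0.23 in Tert+/+ and -0.0038 in G3 Tert-/-.

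The difference between those age effects is the interaction, with positive values where G3 Tert-/- moved up relative to Tert+/+ between the ages. It was positive for 39 of the 43 members with a median of 0.32, while 50% of all genes were positive. With limma 0 members passed, as with edgeR and DESeq2, and 0.00684% of all genes passed. At an unadjusted p under 0.05, 475 of the 14630 genes were positive and 435 negative. Among them were 6 members, all positive: Trim30a, Oasl2, Ifih1, Irgm1, Parp14 and Gbp7. Oasl2 had the largest value, 1.03 ± 0.27 (adjusted p = 0.576). Trim30a had the smallest p, at 0.70 ± 0.17 (adjusted p = 0.507). The interaction was 0.91 ± 0.36 for Irgm1, 0.49 ± 0.17 for Ifih1, 0.42 ± 0.17 for Parp14 and 0.42 ± 0.18 for Gbp7 (adjusted p = 0.774 for the first 3 and 0.791 for Gbp7). A difference in age effect between the genotypes was thus not shown for any single member.

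At 7 weeks, G3 Tert-/- kidneys had lower means than Tert+/+ for 32 of the 43 members, with a median of -0.12, while 50.2% of all genes were positive with a median of 0.0013. With limma 0 members and 0% of all genes passed, and edgeR and DESeq2 called 0 members. The 3 members with an unadjusted p under 0.05 were Trim30a, Ifih1 and Mx2, all lower. Of the 14630 genes, 788 lower and 771 higher ones met that threshold. Trim30a was lower without overlap, as were 0.8% of all genes, at -0.46 ± 0.12 (adjusted p = 0.417). Ifih1 was at -0.30 ± 0.12 (adjusted p = 0.441) and Oasl2 at -0.39 ± 0.19 (adjusted p = 0.471).

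At 47 weeks the direction was the opposite. Means were higher in G3 Tert-/- for 37 of the 43 members (86%), against 52.1% of all genes, with a median of 0.19 against 0.01. Again 0 members passed with limma, edgeR or DESeq2, and 0.0957% of all genes passed with limma. An unadjusted p under 0.05 was found for 450 higher and 512 lower genes of the 14630. Among them were 5 members, all higher: Ifit1, Oasl2, Lgals3bp, Gbp7 and Xaf1. Of the members, Ifit1 alone did not overlap, as 0.875% of all genes did not in that direction. Oasl2 was at 0.64 ± 0.19 (adjusted p = 0.382). G3 Tert-/- old replicate 5 was the highest of its group for 21 of the 43 members, against 22.3% of all genes. Without it, 30 of 43 were higher and the median was 0.15. Both genotype comparisons and the age comparisons share groups, so these counts restate one another in part.

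**Figure D4:**
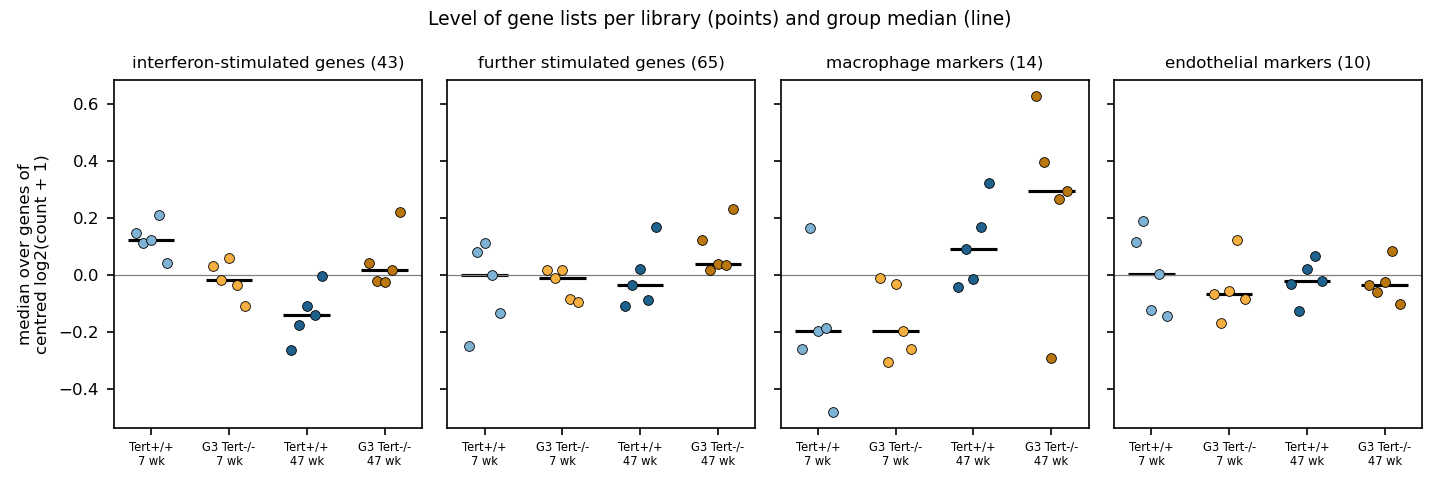
Level of the gene lists in each library, as the median over a list's tested genes of log2(normalized count + 1) centred per gene, with 1 point per mouse in the 4 groups and a line at each group's median; the panels show the 43 members, 65 further interferon-stimulated genes, 14 macrophage markers and 10 endothelial markers. For the 43 members the old Tert+/+ kidneys lie between -0.26 and -0.0023 and the young Tert+/+ kidneys between 0.043 and 0.21, without overlap.

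Read by library, the centred median of the 43 members was 0.043 to 0.21 in young Tert+/+ kidneys, -0.11 to 0.059 in young G3 Tert-/-, -0.26 to -0.0023 in old Tert+/+ and -0.025 to 0.22 in old G3 Tert-/-. Young and old Tert+/+ kidneys did not overlap, whereas the G3 Tert-/- groups did. Summed counts gave 6859 to 7971, 6641 to 7552, 5629 to 6689 and 6761 to 7947 in the same order, so old Tert+/+ kidneys again lay below the young ones. Without both libraries that stood apart, 7 of 43 members were positive with age in Tert+/+ and the median was -0.27.

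None of the 20 listed interferon ligand genes was found by name in the deposited table, so none could be tested. The 6 receptor genes passed in no comparison. Ifnar1 averaged 83.2, 78.2, 75.5 and 74.5 and Ifnar2 368, 325, 304 and 302 in Tert+/+ young, G3 Tert-/- young, Tert+/+ old and G3 Tert-/- old kidneys. In the same order, Ifngr1 averaged 222, 193, 196 and 206, and Ifngr2 52.8, 64.5, 50.1 and 52.9. The lambda receptor chains Ifnlr1 and Il10rb averaged 5.86, 8.46, 7.88 and 13.1 and 97.7, 104, 89.8 and 110.1. None of the 13 tested genes of JAK-STAT signalling passed in any comparison. Of 19 tested genes of nucleic acid sensing upstream of interferon, Zc3hav1 alone passed: this zinc-finger antiviral protein rose with age in G3 Tert-/-, by 0.76 ± 0.14 (adjusted p = 0.00288). In that comparison 2.24% of all tested genes passed.

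In a longer list of 65 further tested interferon-stimulated genes, 33 were positive and 32 negative with age in Tert+/+, with a median of 0.00086, and Ly6e, a membrane protein of the Ly6 family, rose (0.85 ± 0.18, adjusted p = 0.0218). In G3 Tert-/- 43 of the 65 were positive with age (median 0.12), and Cxcl11, a chemokine that attracts T cells, rose from a low level, from 4.14 ± 3.85 to 16.3 ± 5.51 (SD, n = 5) (2.02 ± 0.44, adjusted p = 0.0121). At 47 weeks 43 of the 65 were higher in G3 Tert-/- (median 0.13), and the interaction was positive for 42 (median 0.14). Ly6e and Cxcl11 were the only genes of the list that passed with age. Of all tested genes, 0.649% passed with age in Tert+/+ and 2.24% in G3 Tert-/-. No gene of this list passed in the genotype comparisons or the interaction.

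Among markers of immune and endothelial cells, 3 of B and plasma cells passed with age in Tert+/+ and 1 of neutrophils in G3 Tert-/-. The shares of all tested genes that passed there were 0.649% and 2.24%. Of 14 macrophage markers, 11 had positive fold changes with age in Tert+/+ (median 0.31) and 14 in G3 Tert-/- (0.39), and 10 were higher in old G3 Tert-/- than old Tert+/+ (0.24); 0 passed. Their summed counts were 910 to 1930 in young Tert+/+, 1197 to 1501 in young G3 Tert-/-, 1321 to 1898 in old Tert+/+ and 1334 to 2030 in old G3 Tert-/-, and none was at 0 in any library. B and plasma cell markers summed to 92.6 to 609 in young and 2973 to 9394 in old Tert+/+ kidneys and to 282 to 939 and 412 to 9624 in G3 Tert-/-, with Cd79b at 0 in some libraries. All 6 tested of that list were positive with age in both genotypes, while at 47 weeks 0 of 6 were higher in G3 Tert-/- (median -1.19) and 0 passed. T and natural killer markers summed to 88 to 100.3 and 113 to 183 in young and old Tert+/+ and to 70.7 to 120 and 82.1 to 157 in G3 Tert-/-, with 5 of 14 at 0 somewhere. Neutrophil markers summed to 41.1 to 183, 68 to 95.4, 58.7 to 87.9 and 77.9 to 273 in the same order of groups, and at 47 weeks 3 of 4 tested were higher in G3 Tert-/- (median 0.90) and 0 passed. Markers of plasmacytoid dendritic cells, known as strong producers of type I interferon, summed to 37.9 to 113 over all libraries, with 4 of 7 at 0 somewhere. The 10 endothelial markers had median fold changes of -0.05 and -0.02 with age in Tert+/+ and G3 Tert-/-. The part of these cells in the members' values was not tested.

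Members with and without the ISRE letters can be set side by side. In Tert+/+, 17 of 17 tested members with a match in the promoter had a negative fold change with age, with a median of -0.19, and 14 of 18 tested members without one, also with a median of -0.19. In G3 Tert-/-, 10 of 17 with and 8 of 18 without were positive, with medians of 0.13 and -0.0049. The interaction was positive for 16 of 17 and 15 of 18 (medians 0.23 and 0.24). These counts describe the members and were not tested.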

How the data were processed

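The authors deposited a signal table of normalized read counts for 20 kidney libraries. The unit was read from the name of the table and from its values, which are whole multiples of 1 step per library (0.8304 to 1.1261, relative tolerance 1e-06), so whole reads could be recovered (100% of values). Per the labels' protocols, libraries came from 300 ng of RNA (mean quality 6.6, range 5.0 to 7.5) with a stranded 3′ kit. Per the submitters' processing notes, the build was GRCm38, and the tools named, with no role given, were HTSeq 0.6.1, TopHat2 2.0.10, DESeq2, SAMtools 0.1.19, Bowtie 1.0.0 and FastQC 0.11.7. The table holds genes above 0 in at least 6 libraries.

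Groups came from genotype and age in the labels, and replicates were numbered in the order listed, which pairs no mice. Genes with 10 or more in at least 5 libraries were fitted with limma 3.58.1 in R 4.3.3 (eBayes with trend, two-sided) on log2(normalized count + 1), in 1 model of 4 group means over 20 libraries. P-values were adjusted by Benjamini-Hochberg over all 14630 genes tested, with a threshold of 0.05. The fit was tested on simulated data. Alternatives were a pseudocount of 5, no filter, TMM scaling, edgeR 4.0.16 (quasi-likelihood) and DESeq2 1.42.0 on recovered reads, only the groups compared, each library left out, and both libraries that stood apart left out. The members and gene lists were chosen with earlier results of these data known.

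Full values are given for members that passed, the 5 with the smallest p in each comparison and the one with the highest mean in each of 9 roles; other lists are given as counts, with the receptors and up to 4 passing genes named. Values of a few single genes that this rule takes are left out here. Coordinates are from GENCODE M21 (49 members matched), promoters from RefSeq. Close copies were sought with BLAST+ 2.17.0 in the last 300 transcript bases (at least 90% identity over 100 bases).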

Additional observations from a re-analysis of the deposited data

Results flagged for a closer look

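In 13 of the 172 groups of 5 values (43 members in 4 groups), 1 library stood far from the other 4 by Dixon's test. Chance gives such a gap in about 1 in 20 groups. No cause was tested.

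In young Tert+/+ kidneys, Parp12 was 37 in replicate 4 against 48.9 to 54 in the others, and Ifi35 was 108 in replicate 1 against 54.5 to 60.6. In young G3 Tert-/- kidneys, Dtx3l was 105 in replicate 4 against 145 to 166. Mx2 was 6.43 in replicate 5 against 10.9 to 11.7. Gbp3 was 31.8 in replicate 1 against 50.9 to 59. Ifi27 was 714 in replicate 3 against 220 to 286.

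In old Tert+/+ kidneys, Stat2 was 106 in replicate 5 against 81.9 to 86.7. Replicate 4, which also stood apart over all genes, had the high value for Parp9, 208 against 104 to 127, and for Gbp2, 67.6 against 44.8 to 47.8. Replicate 1 had the low value for Rsad2, 410 against 578 to 613, and for Ifi27l2a, 46.6 against 93.5 to 121. In old G3 Tert-/- kidneys, Irf9 was 248 in replicate 5 against 179 to 187, and Rsad2 was 555 in replicate 3 against 616 to 634.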

How the results depend on the processing

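The direction of the members' median held in the Tert+/+ age comparison, both genotype comparisons and the interaction under all alternatives run; in the G3 Tert-/- age comparison it lay near 0 and changed sign. Leaving out 1 library at a time, the median was -0.3 to -0.2 with age in Tert+/+, -0.0124 to 0.107 with age in G3 Tert-/- (highest without G3 Tert-/- young replicate 3), -0.15 to -0.074 at 7 weeks, 0.15 to 0.22 at 47 weeks and 0.24 to 0.38 for the interaction. Members positive with age in Tert+/+ numbered 4 to 9 (9 without Tert+/+ old replicate 2).

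Counts of calls moved most. Members called lower with age in Tert+/+ numbered 3 with DESeq2 (Trim30a, Oasl2 and Lgals3bp) and 0 with no filter, with edgeR or with only the groups compared, and 0 to 1 with 1 library left out. Without both libraries that stood apart it was 1, Lgals3bp in place of Trim30a. Over all genes, DESeq2 called 13 genes at 7 weeks, 52 at 47 weeks, 211 with age in Tert+/+, 530 with age in G3 Tert-/- and 7 for the interaction. With only the groups compared, 6 genes were called at 47 weeks and 53 with age in Tert+/+. Without both libraries that stood apart, 661 were called with age in G3 Tert-/- and 0 for the interaction. With 1 library left out, the counts were 0 to 2 at 7 weeks, 2 to 19 at 47 weeks, 56 to 125 with age in Tert+/+, 192 to 497 with age in G3 Tert-/- and 0 to 2 for the interaction. The cause was not tested.

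No paired analysis was possible because the replicate numbers follow the order of listing and pair no mice. Depth limits the 6 members under the filter most, and Oasl1 and Mx2 lay close to it.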

Other observations

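Single libraries differed in how often they held their group's extreme. Tert+/+ old replicate 1 was the lowest of its group for 17 of the 43 tested members, against 17.9% of all genes. G3 Tert-/- young replicate 3 was the highest for 17, against 24.7% of all genes, and Tert+/+ old replicate 5 for 15, against 17.3%. Within groups, the members' spread was close to that of all tested genes, with a median SD of 0.31 against 0.3 on the log2 scale.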
